A study of Mus musculus with 6 samples.

Results

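The genes described here encode histone-modifying enzymes and histone readers of mouse testis. They were taken as the protein-coding genes whose GRCm38 symbol is Kdm, Kmt, Setd, Chd, Brd, Hdac, Kat or Sirt followed by a digit, with at least 10 counts in at least 2 of 6 libraries. The symbol Chd5 and genes starting between 115 and 150 Mb of chromosome 4 were left out. Of 55536 genes in the deposited table, 78 protein-coding genes had such a symbol and 73 met the whole rule. All 73 were among the 20744 genes tested. Besides Chd5, the stretch of chromosome 4 removed Hdac1, Kdm1a and Kdm4a, and the count minimum removed Hdac8. Counts of Hdac8 were 4 and 7 in WT, 7 and 6 in P2KO, and 13 and 9 in DKO, so that only 1 library reached 10. The member closest to the minimum from above was Hdac10, with counts of 26 and 57 in WT, 50 and 32 in P2KO, and 38 and 29 in DKO. Brd3os met the rule by its symbol and its annotation as protein-coding, but it is named for its place opposite Brd3 and is not known as a bromodomain protein.

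Poly(A)-selected RNA from whole testes of 4-month-old mice was sequenced with a directional kit to ask how loss of the peptidylarginine deiminases PAD2 and PAD4, which convert arginine to citrulline in histones and other proteins, changes transcripts. WT mice were of the inbred strain FVB/NJ, and both knockout lines were kept inbred on the same background. P2KO mice carry a gene trap with a LacZ/Neo cassette in exon 1 of Padi2. DKO mice carry in addition a small CRISPR/Cas9 deletion in exon 1 of Padi4, made on the P2KO line and traced to 1 founder. Each genotype had 2 mice and 2 libraries, and the libraries held between 21939393 and 27306679 counts assigned to genes. Both knockout lines carry the Padi2 allele, the DKO line comes from a single founder, and all comparisons are between lines, so effects of the lines and of the alleles cannot be told apart.

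Histones are marked by enzymes that add methyl groups (the Kmt and Setd families) or acetyl groups (Kat) to lysines, and the marks are removed by demethylases (Kdm) and deacetylases (Hdac and Sirt). Proteins with bromodomains (Brd) bind acetylated lysines, and the chromodomain proteins (Chd) are ATPases that remodel nucleosomes. In the testis, these marks change as spermatogonia enter meiosis and again in spermatids, where histones become highly acetylated before protamines replace them. The Kmt2 methyltransferases work within large complexes.

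The targeted genes were counted first. Padi2 had 47 and 64 counts in WT, 100 and 55 in P2KO, and 59 and 83 in DKO. The groups overlap, and these counts therefore do not check the Padi2 genotype. The groups are named below by the labels of the libraries. Padi4 had 20 and 43 counts in WT, 11 and 10 in P2KO, and 4 and 4 in DKO, so that both libraries labelled DKO were below all others. The tissue was checked with markers of 10 testicular and blood cell types. No marker was at 0 in all libraries, and no list was at the floor of 3 counts.

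Levels were compared between genes as normalized counts per kb of merged exon. The median member was at 119 in WT, against 68.1 for all tested genes, and 46 of the 73 members were above the latter value. The deacetylase Sirt2 was highest, at 1525 ± 26.5 (SD, n = 2), followed by the bromodomain protein Brd2 at 1305 ± 22.5. The highest Kat gene was Kat8, the acetyltransferase of the male-specific-lethal complex, at 1127 ± 12.8, and the highest Chd gene was Chd4, the ATPase of the NuRD complex, at 1004 ± 97.2. The difference between Chd4 and the highest Kdm gene, Kdm4d (968.6 ± 27.7), a histone H3 demethylase, was smaller than the SD of Chd4. In the other families the highest levels were those of Hdac11 (757.8 ± 2.49), the actin methyltransferase Setd3 (565 ± 3.62) and Kmt2b (193.9 ± 14.5). The lowest levels were those of the Y-linked demethylase Kdm5d (6.402 ± 0.507), Hdac9 (7.405 ± 0.151) and Setd7 (9.051 ± 0.276).

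In the comparison of DKO with WT, 4 members were called higher and 0 lower, where a call is an adjusted p under 0.05 in edgeR's quasi-likelihood test over all tested genes. Over all tested genes, 2.06% were called higher and 1.16% lower. The 4 members are the methyltransferases Kmt2d and Setd2, the acetyltransferase Kat6a and the remodeler Chd9, which belong to 4 different families. At an unadjusted p under 0.05, 16 members were higher and 0 lower by edgeR (21.9% of members, against 14.1% of all tested genes). DESeq2 on all 6 libraries called 3 members higher and 0 lower, and 403 of all genes in either direction. At the unadjusted threshold it gave 14 members higher and 0 lower, and no share over all genes was taken there. In bulk testis, more cells of a type and more RNA per cell cannot be told apart.

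Kmt2d, a Kmt2 methyltransferase that acts at enhancers, lies on chromosome 15 from 98831669 to 98871204 (GRCm38, minus strand) and has 19931 nt of merged exons. Its normalized counts were 1806 and 1627 in WT, 1828 and 1881 in P2KO, and 2108 and 2328 in DKO. Both DKO libraries were above all others, and both P2KO libraries were above both WT libraries by little. The log2 fold change of DKO against WT was 0.37 (SE 0.07, adjusted p = 0.000742, edgeR), a 1.29-fold difference. The call was lost without DKO 2 (0.30, adjusted p = 0.101) and after a correction for exon length (log2 fold change 0.18, adjusted p = 0.146).

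Setd2, the methyltransferase that follows elongating RNA polymerase, lies on chromosome 9 from 110532597 to 110618633 and has 10754 nt of merged exons. Its normalized counts were 1700 and 1507 in WT, 1742 and 1820 in P2KO, and 1992 and 2058 in DKO. As for Kmt2d, the DKO libraries were highest and the WT libraries lowest, with no overlap between the 3 groups. The log2 fold change of DKO against WT was 0.34 (SE 0.0699, adjusted p = 0.00234, edgeR). It stayed called after the length correction (0.24, adjusted p = 0.0295) but not without WT 2 (0.25, adjusted p = 0.0767) or without DKO 2 (0.31, adjusted p = 0.0866).

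Kat6a, the catalytic subunit of an acetyltransferase complex, lies on chromosome 8 from 22859535 to 22943259 and has 9180 nt of merged exons. Its normalized counts were 793.1 and 603.6 in WT, 784.1 and 911.3 in P2KO, and 928.2 and 967.9 in DKO. The DKO libraries were above the rest, while WT and P2KO overlapped and WT 2 was lowest. The log2 fold change of DKO against WT was 0.45 (SE 0.0964, adjusted p = 0.00374, edgeR), and 0.37 after the length correction (adjusted p = 0.0109). Without WT 2 it was 0.26 (adjusted p = 0.241), and without DKO 2 it was 0.42 (adjusted p = 0.105).

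Chd9, a chromodomain remodeler, lies on chromosome 8 from 90828352 to 91054516 and has 23148 nt of merged exons, the most of any member. Its normalized counts were 224.2 and 285.1 in WT, 290.9 and 269.3 in P2KO, and 321.8 and 376.4 in DKO. Both DKO libraries were highest, and the WT and P2KO libraries overlapped. The log2 fold change of DKO against WT was 0.44 (SE 0.125, adjusted p = 0.0383, edgeR), and the call was kept in 7 of 18 alternative analyses, the fewest of the 4 genes. After the length correction it was 0.22 (adjusted p = 0.496), and by DESeq2 on all 6 libraries the adjusted p was 0.184. It was also not called without WT 1 (0.28, adjusted p = 0.329), without DKO 1 (0.55, adjusted p = 0.0604) or without DKO 2 (0.33, adjusted p = 0.453). An antisense gene, Gm45641, overlaps Chd9, and the strand of the deposited counts is not given in the sources used here.

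**Figure D1:**
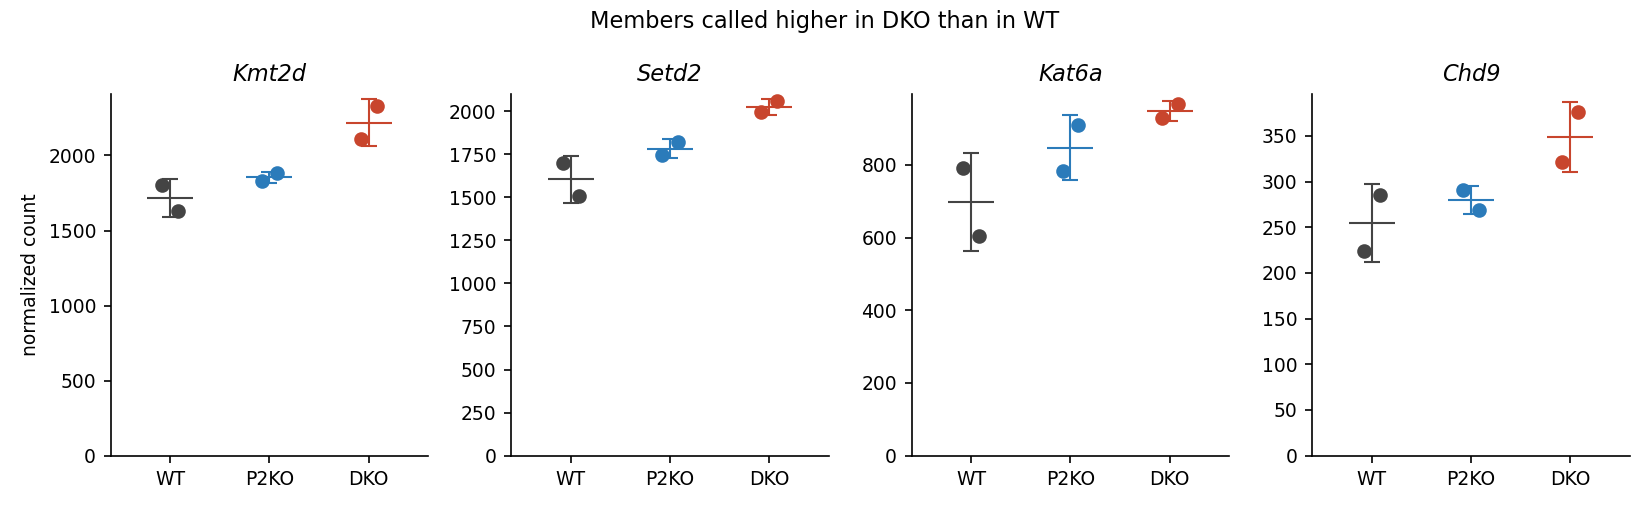
Normalized counts (vertical axis, from 0) of the 4 members called in DKO against WT. Points are the 2 libraries of each genotype on the horizontal axis, and bars are mean ± SD. For each gene both DKO libraries lie above both WT libraries; for Chd9 they run from 321.8 to 376.4 against 224.2 to 285.1.

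With 1 library left out, the number of all tested genes called in DKO against WT was highest without WT 1 and lowest without DKO 2. The number of members called in this comparison also rested on single libraries. It too was highest without WT 1 and lowest without DKO 2, as was the number over all tested genes. Without DKO 2 the 4 genes named above were at 0.30 (Kmt2d), 0.31 (Setd2), 0.42 (Kat6a) and 0.33 (Chd9). The number of members called was 2 of 73 with the length correction, a share similar to the 532 of 20744 tested genes then called. It was also 2 by DESeq2 on the 2 genotypes compared, where 296 genes were called. That run took all 55536 genes of the deposited table unfiltered, so its share cannot be set beside those of edgeR.

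Among the enzymes that add methyl groups, 7 of 8 Kmt genes and 5 of 8 Setd genes had a log2 fold change above 0 in DKO against WT, with medians of 0.22 and 0.17. Kmt2a, a homolog of Drosophila trithorax, stood at 0.39 and was not called (SE 0.124, adjusted p = 0.083, edgeR). Its normalized counts were 415.7 and 337 in WT, 410.7 and 511 in P2KO, and 421.5 and 561.9 in DKO. The DKO libraries were above those of WT, but DKO 1 exceeded WT 1 by little. Kmt2a was called without WT 1 (0.54, adjusted p = 0.00329) and without DKO 1 (0.58, adjusted p = 0.0233), and also with no filter on low counts, which gave 5 calls. With the length correction it was at 0.22 (adjusted p = 0.423). Setd4 was the lowest of these families at -0.20 and was not called (SE 0.16, adjusted p = 0.639, edgeR). Among the demethylases, 14 of 16 Kdm genes were above 0 (median 0.14) and 0 were called. Kdm3a, a demethylase required for the packaging of sperm chromatin, was at 0.20 with an adjusted p of 0.0641 (edgeR), and was called without WT 1 (0.24, adjusted p = 0.0113).

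Among the acetyltransferases, 7 of 8 Kat genes were above 0, with a median of 0.06. Of the 9 Hdac deacetylases, 8 were below 0, with a median of -0.05, against 10612 of 20744 tested genes, and none was called. The lowest was Hdac10, at -0.31 (SE 0.299, adjusted p = 0.727, edgeR), which had few counts, and its value was 0.20 without WT 2. Hdac4, a deacetylase with 15813 nt of merged exons, was lower in both DKO libraries (734.7 and 781.4) than in both WT libraries (817.9 and 823.9), at -0.12 (adjusted p = 0.585, edgeR). With the length correction it was at -0.275 (adjusted p = 0.055). Of the 7 sirtuins, 3 were above 0 and Sirt6, a chromatin-bound deacetylase, was lowest at -0.285 (SE 0.207, adjusted p = 0.6, edgeR). Sirt6 had normalized counts of 107 and 74.1 in WT, 71 and 75.6 in P2KO, and 70.9 and 76.3 in DKO. Only WT 1 stood apart, and without it the value was -0.015. In P2KO against WT, 6 of 9 Hdac genes (median 0.058) and 4 of 8 Kat genes (median -0.003) were above 0. In DKO against P2KO, 1 of 9 Hdac genes (median -0.074) and 8 of 8 Kat genes (median 0.124) were above 0.

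Among readers and remodelers, 9 of 9 Chd genes and 7 of 8 Brd genes were above 0 in DKO against WT, with medians of 0.17 and 0.08. The Brd genes counted include Brd3os (0.17), which is not known as a bromodomain protein. The counts for the Chd and Hdac families were the same with RLE size factors and with upper-quartile scaling. With upper-quartile scaling the counts above 0 became 6 of 8 Kmt, 13 of 16 Kdm, 6 of 8 Kat and 5 of 8 Brd genes. For all members it was then 48 of 73, against 9065 of 20744 tested genes (median -0.028). Over all members, 53 of 73 were above 0 (median 0.08), against 10132 of 20744 tested genes (median -0.005). After the length correction this became 43 of 73 (median 0.014) and 10336 of 20744 (median -0.001). The counts above 0 were then 7 of 8 Kmt genes (median 0.08), 4 of 8 Setd (0.03), 10 of 16 Kdm (0.013), 6 of 8 Kat (0.04), 1 of 9 Hdac (-0.16), 4 of 7 Sirt (0.003), 6 of 9 Chd (0.03) and 5 of 8 Brd genes (0.014). The Hdac median thus moved further from 0 with the correction, and those of the other families moved closer to it.

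The libraries of DKO and WT did not overlap for 35 members (47.9%) that were higher in DKO and 7 (9.59%) that were lower. Over all tested genes, 21.6% were higher in both DKO libraries than in both WT libraries and 21.6% were lower. The 35 members include 9 Kdm genes, 6 Chd genes and 0 Hdac genes. The 7 lower members are Brd9, Hdac4, Hdac5, Hdac7, Kat8, Setd3 and Setd4.

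In the comparison of P2KO with WT, which share the WT libraries with the comparison above, 0 members were called higher and 0 lower by edgeR. Over all tested genes, 0.198% were called higher and 0.14% lower. At an unadjusted p under 0.05, 8 members were higher and 1 lower (12.3%, against 8.57% of all tested genes). DESeq2 on all 6 libraries called 0 members, and 41 of all genes in either direction. At the unadjusted threshold it gave 3 members higher and 0 lower, with no share over all genes taken. Without WT 1, Chd6 (0.46) and Kat6a (0.48) were called higher, and more of all tested genes were called than with all 6 libraries. The largest values were those of the demethylase Kdm4c (0.31, SE 0.145, adjusted p = 0.553, edgeR), the remodeler Chd6 (0.30, SE 0.106, adjusted p = 0.343) and Kmt2a (0.29, SE 0.124, adjusted p = 0.49). The lowest were Sirt6 at -0.29, the class II deacetylase Hdac7 at -0.26 and Kdm5d at -0.25, with adjusted p of 0.753, 0.77 and 0.777 (edgeR). Without WT 1, Sirt6 was at -0.02. The 4 members called in DKO against WT stood here at 0.11 (Kmt2d), 0.15 (Setd2), 0.28 (Kat6a) and 0.13 (Chd9), with adjusted p from 0.311 to 0.843 (edgeR). Without WT 2, Kmt2d was at 0.04, Setd2 at 0.07, Kat6a at 0.09 and Chd9 at 0.32, and without WT 1 they were at 0.18, 0.24, 0.48 and -0.03. Without P2KO 2, Kat6a was at 0.17, and without P2KO 1, Chd9 was at 0.07.

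Chd6 had normalized counts of 496.8 and 395.3 in WT, 502 and 595.1 in P2KO, and 504.8 and 526.9 in DKO. All 4 knockout libraries were above both WT libraries, by little for P2KO 1 and DKO 1, and P2KO and DKO overlapped. Kdm4c had 212.9 and 152.7 in WT, 214.6 and 235.3 in P2KO, and 223.2 and 218.4 in DKO. For this gene, WT 2 was low and WT 1 was close to the knockout libraries. Both P2KO libraries were above both WT libraries for 16 members (21.9%, against 18.7% of all tested genes) and below them for 10 (13.7%, against 18.8%). The median member was at 0.053 and 50 of 73 were above 0, against a median of 0.004 over all tested genes. The median of the members was 0.025 without WT 2 and 0.031 without P2KO 2.

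The comparison of DKO with P2KO asks what the additional Padi4 allele is associated with, and 0 members were called higher and 0 lower by edgeR. Over all tested genes, 0.607% were called higher and 0.598% lower. At an unadjusted p under 0.05, 12 members were higher and 2 lower (19.2%, against 11.8% of all tested genes). DESeq2 on all 6 libraries called 0 members, and 162 of all genes in either direction. At the unadjusted threshold it gave 8 members higher and 0 lower, with no share over all genes taken. Members nearest to a call were Kmt2d at 0.26 (SE 0.0695, adjusted p = 0.0555, edgeR) and Kdm4d at 0.21 (SE 0.0622, adjusted p = 0.0897, edgeR). Kdm4d had normalized counts of 2715 and 2827 in WT, 2551 and 2575 in P2KO, and 2922 and 3022 in DKO. The P2KO libraries were lowest and the DKO libraries highest, with no overlap between the 3 groups. After the length correction Kdm4d was called (adjusted p = 0.0349, edgeR), as 1 of 295 genes called among the 20744 tested. Both Kmt2d and Kdm4d were called by DESeq2 and by edgeR on the 2 genotypes alone, which gave 2 calls each. Over all genes, the edgeR run called 579 of the 20262 it tested. The DESeq2 run called 261. It took all 55536 genes of the deposited table unfiltered and gave some, Chd9 and Kat6a among them, no adjusted p. Its share over the genes it tested is therefore not given. Kmt2d (0.26) and Kdm4d (0.21) had the same values without WT 1 or WT 2 and were then called, as was Kmt2c without WT 2. In both runs more of all tested genes were called than with all 6 libraries. Kmt2d alone was also called without a filter (adjusted p = 0.0314) and with the GC correction (adjusted p = 0.0447). Kdm4d alone was also called with the length correction and the replicate block together. Not all alternatives gave a call. Kmt2d was at 0.17 with the length correction (adjusted p = 0.193), and neither Kmt2d nor Kdm4d was called by DESeq2 on all 6 libraries (adjusted p = 0.112 for Kmt2d) or with the replicate block alone (adjusted p = 0.103 for Kmt2d). Nor was either called when a library of the genotypes compared was left out, with values for Kmt2d of 0.24 without P2KO 1 (adjusted p = 0.394), 0.29 without P2KO 2 (adjusted p = 0.164), 0.325 without DKO 1 (adjusted p = 0.0959) and 0.19 without DKO 2 (adjusted p = 0.583).

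The largest log2 fold changes of DKO against P2KO were 0.31 for Chd9 (SE 0.123, adjusted p = 0.259, edgeR), 0.28 for the methyltransferase Kmt2c (SE 0.095, adjusted p = 0.178) and 0.26 for the methyltransferase Setd7 (adjusted p = 0.668). The lowest were -0.28 for Setd6 (adjusted p = 0.616), -0.23 for Hdac10 (adjusted p = 0.837) and -0.17 for Hdac4 (adjusted p = 0.384). With 1 library left out, Chd9 ran from 0.20 (without DKO 2) to 0.42 (without DKO 1). Setd7 ran from -0.063 (without P2KO 1) to 0.635. The median member was at 0.065 and 48 of 73 were above 0, against a median of -0.003 over all tested genes. The median of the members was 0.042 without DKO 1. Both DKO libraries were above both P2KO libraries for 30 members (41.1%, against 21.1% of all tested genes) and below them for 11 (15.1%, against 21.6%).

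Members are long. Their merged exons ran from 1898 nt (Brd3os) to 23148 nt (Chd9), with a median of 7336 nt against 3330 nt for all tested genes. Across the 73 members, the Spearman correlation of the log2 fold change with exon length was 0.511 in DKO against WT, 0.314 in P2KO against WT and 0.342 in DKO against P2KO. Across all 20744 tested genes the values were 0.292, 0.148 and 0.169. These are descriptions across genes that share the same 6 libraries, and genes are not independent replicates. With the length of the longest transcript in place of merged exons, the members gave 0.567, 0.406 and 0.359. Exon length was itself related to the GC content of the longest transcript across members (-0.313) and hardly to the mean normalized count (0.114), and the log2 fold change of DKO against WT had a correlation of -0.184 with GC content and 0.0924 with the mean count.

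The 25 shortest members, with 1898 to 5495 nt of exons, had a median log2 fold change of 0.006 in DKO against WT, and 13 were above 0. The 24 members of 5536 to 10057 nt had a median of 0.06, with 18 above 0. The 24 longest members, of 10444 to 23148 nt, had a median of 0.18, with 22 above 0, and 3 of the 4 calls (Setd2, Kmt2d and Chd9) fell among them. The other 2 of the longest, Hdac4 and Hdac9, were below 0. Tested genes in the same 3 length ranges had medians of -0.012, 0.06 and 0.13. In the longest range, 20 of 24 members (83.3%) and 642 of 1227 tested genes (52.3%) were higher in both DKO libraries than in both WT libraries, and 145 (11.8%) of those tested genes were called higher. In the shortest and middle ranges, both DKO libraries were higher for 24% and 37.5% of members, against 18% and 34.1% of tested genes. In P2KO against WT the shares from shortest to longest were 12%, 12.5% and 41.7% of members (tested genes 16.7%, 22.8% and 33.3%). In DKO against P2KO they were 24%, 41.7% and 58.3% (tested genes 20.4%, 27.7% and 37.2%).

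**Figure D2:**
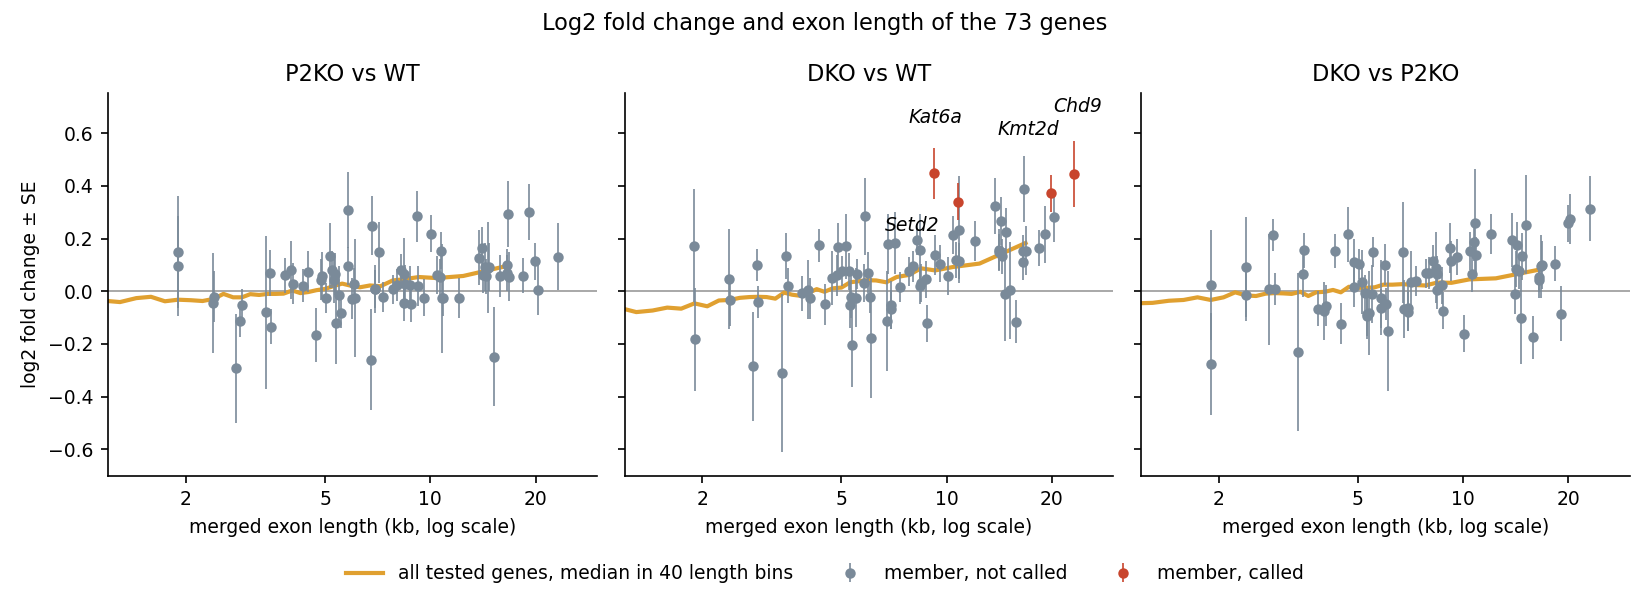
Log2 fold change (vertical axis, ± SE) against merged exon length in kb (horizontal log axis) for the 73 members, in the comparison named above each plot. Red points are members called, grey points members not called, and the line joins the medians of all tested genes in 40 bins of length. In DKO against WT the 24 longest members have a median of 0.18 and the 25 shortest a median of 0.006.

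The 5 longest members in DKO against WT were at 0.44 (Chd9), 0.28 (Kmt2c), 0.37 (Kmt2d), 0.22 (Chd6) and 0.16 (Setd5). All 5 were above 0, and 2 were called. The 5 shortest were at 0.17 (Brd3os), -0.18 (Setd6), 0.05 (the JmjC protein Kdm8), -0.04 (the mitochondrial sirtuin Sirt4) and -0.285 (Sirt6). Signs were mixed among these and 0 were called by edgeR, with adjusted p of 0.6 or more. Without DKO 1, Brd3os turned to -0.295, and without DKO 2, Kdm8 turned to -0.084 and Sirt4 to 0.109.

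The relation with length was also seen between libraries of 1 genotype. The log2 deviation of each member from its mean over the 6 libraries had a Spearman correlation with exon length of -0.223 in WT 1 and -0.387 in WT 2. It was -0.339 in P2KO 1 and 0.263 in P2KO 2, and 0.0906 in DKO 1 and 0.54 in DKO 2. The P2KO libraries thus had opposite signs, and WT 2 and DKO 2 were the lowest and the highest. Over all tested genes the same values were -0.0515 and -0.301 in WT, -0.122 and 0.0659 in P2KO, and 0.174 and 0.177 in DKO. With 1 library left out, the members' correlation in DKO against WT ran from 0.344 (without DKO 2) to 0.585 (without DKO 1), in P2KO against WT from 0.079 (without P2KO 2) to 0.476 (without P2KO 1), and in DKO against P2KO from 0.083 (without DKO 2) to 0.469 (without P2KO 2). The part of library quality in these values was not tested.

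**Figure D3:**
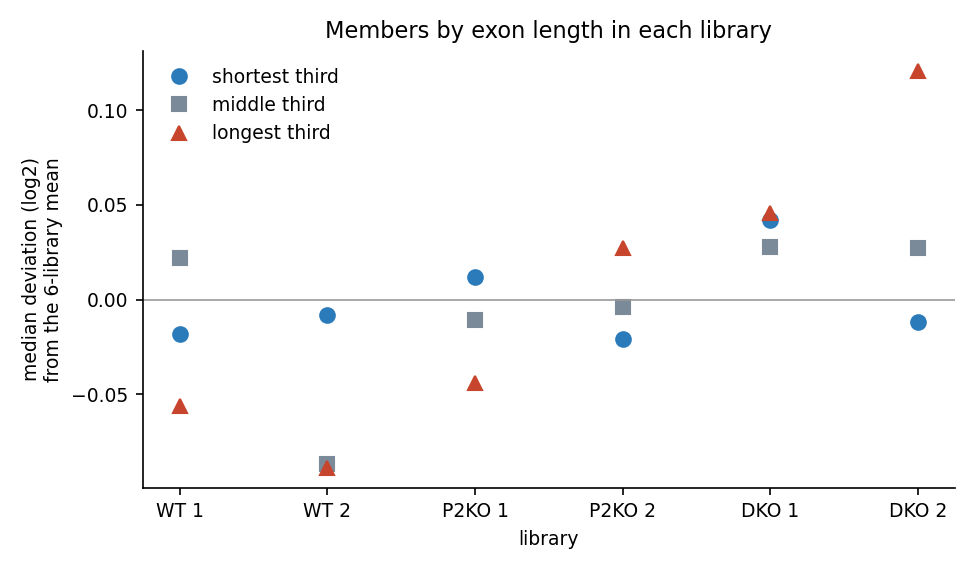
Median log2 deviation (vertical axis) of members from their mean over the 6 libraries, for the 25 shortest, the 24 middle and the 24 longest by exon length, in each library (horizontal axis). The longest are lowest in WT 2 (-0.089) and highest in DKO 2 (0.121).

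When each library's counts were corrected for the trend of all tested genes with exon length, the median of the members became 0.01 in DKO against WT, -0.01 in P2KO against WT and 0.02 in DKO against P2KO. The correlations with exon length became 0.075, -0.051 and 0.146, and those with the length of the longest transcript 0.201, 0.0937 and 0.184. Kat6a and Setd2 were then the 2 of 73 members called in DKO against WT, a share similar to the 532 of 20744 tested genes called. The correction takes out a trend of all tested genes with merged exon length, whatever its source.

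Other genes of the same machinery were taken from 5 lists with 95 genes, all tested, with median exons of 7354 nt. In DKO against WT, 17 (17.9%) were called higher and 2 lower, against 2.06% and 1.16% of all tested genes, with a median of 0.11. Of the 95, 54 were higher in both DKO libraries than in both WT libraries, against 21.6% of all tested genes. With the length correction, 5 were called higher (Bptf, Ep400, Ncor1, Ncoa3 and Epc1) and 1 lower (Jmjd6). Of the 20744 tested genes, 532 were then called in either direction. In P2KO against WT 0 were called (median 0.07), and in DKO against P2KO 3 were called higher and 0 lower (median 0.05). The correlation with exon length in DKO against WT was 0.578.

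Of 8 other acetyltransferases, 4 were called higher in DKO against WT. They are the paralogous coactivators Crebbp (0.33, SE 0.0765, adjusted p = 0.00903, edgeR) and Ep300 (0.325, SE 0.078, adjusted p = 0.0108), Ncoa3 (0.36, adjusted p = 0.011) and the TFIID subunit Taf1 (0.37, adjusted p = 0.0482). None of the 4 was called by edgeR without DKO 2 (Crebbp 0.25, adjusted p = 0.292, Ep300 0.27, adjusted p = 0.274, Ncoa3 0.36, adjusted p = 0.134, Taf1 0.33, adjusted p = 0.328). Nor were Ep300 (0.195, adjusted p = 0.341), Ncoa3 (0.215, adjusted p = 0.415) and Taf1 (0.29, adjusted p = 0.427) without WT 2, or Ncoa3 (0.36, adjusted p = 0.112) and Taf1 (0.40, adjusted p = 0.152) without DKO 1. After the length correction Ncoa3 was still called (0.30, adjusted p = 0.0328), and Crebbp (0.19, adjusted p = 0.203), Ep300 (0.18, adjusted p = 0.197) and Taf1 (0.30, adjusted p = 0.149) were not.

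Of 25 other bromodomain readers and remodelers, 6 were called higher and 25 were above 0. Bptf, the largest subunit of the NURF remodeler, was at 0.42 (SE 0.064, adjusted p = 4.08e-05, edgeR), with normalized counts of 2687 and 2467 in WT, 2665 and 2823 in P2KO, and 3374 and 3503 in DKO. Both DKO libraries of Bptf were above the other 4, which overlapped. The remodeler Ep400 was at 0.35 (adjusted p = 0.000498), Baz2a at 0.27 (adjusted p = 0.00535) and Brwd1, a bromodomain protein required for germ cells of both sexes, at 0.30 (adjusted p = 0.00604). Bptf and Ep400 were called with any 1 library left out. Baz2a was not called without WT 2 (0.17, adjusted p = 0.153), DKO 1 (adjusted p = 0.0607) or DKO 2 (adjusted p = 0.123), and Brwd1 not without DKO 2 (0.24, adjusted p = 0.226). The remaining 2, Srcap (0.98, adjusted p = 0.0246, edgeR) and Cecr2 (0.28, adjusted p = 0.047), lost the call without WT 2 (Srcap 0.57, adjusted p = 0.526, Cecr2 0.14, adjusted p = 0.671), DKO 1 (adjusted p = 0.0528 and 0.455) or DKO 2 (adjusted p = 0.328 and 0.1), and Cecr2 without P2KO 1 (adjusted p = 0.0512). With the length correction Bptf (0.28, adjusted p = 0.0023) and Ep400 (0.21, adjusted p = 0.0199) stayed called, while Baz2a (0.17, adjusted p = 0.0725), Brwd1 (0.11, adjusted p = 0.537), Srcap (0.82, adjusted p = 0.0813) and Cecr2 (0.12, adjusted p = 0.586) did not.

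Of 21 other methyltransferases, 2 were called higher, namely Ash1l (0.405, SE 0.0783, adjusted p = 0.00103, edgeR) and Dot1l (0.22, SE 0.0622, adjusted p = 0.0425), and 10 were above 0. Ash1l was not called without DKO 2 (0.32, adjusted p = 0.116), and Dot1l not without WT 2 (0.10, adjusted p = 0.651), P2KO 1 (adjusted p = 0.0596), DKO 1 (adjusted p = 0.222) or DKO 2 (adjusted p = 0.299). Of 9 other JmjC proteins, Jmjd1c was called higher (0.29, adjusted p = 0.0156, edgeR) and Jmjd6 lower (-0.26, adjusted p = 0.0166). Jmjd1c was not called without WT 2 (0.20, adjusted p = 0.277) or DKO 2 (0.23, adjusted p = 0.328), and Jmjd6 not without DKO 1 (-0.28, adjusted p = 0.0996) or DKO 2 (-0.24, adjusted p = 0.224). Jmjd6 stayed called with the length correction (-0.27, adjusted p = 0.00582), and Ash1l (0.25, adjusted p = 0.0543), Dot1l (0.145, adjusted p = 0.193) and Jmjd1c (0.12, adjusted p = 0.465) did not.

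Of 32 partner subunits, 4 were called higher and 1 lower. They were the corepressor Ncor1 (0.345, adjusted p = 0.00119, edgeR), Trrap (0.31, adjusted p = 0.00824), Hcfc1 (0.34, adjusted p = 0.0275) and Epc1 (0.28, adjusted p = 0.0494), while the NuRD subunit Mbd3 was lower (-0.24, adjusted p = 0.0395). Without WT 2, Ncor1 (0.22, adjusted p = 0.0677), Trrap (0.21, adjusted p = 0.117), Hcfc1 (0.19, adjusted p = 0.514) and Epc1 (0.18, adjusted p = 0.538) were not called. Without DKO 2, Trrap (0.22, adjusted p = 0.339), Hcfc1 (0.32, adjusted p = 0.268), Epc1 (0.225, adjusted p = 0.419) and Mbd3 (-0.20, adjusted p = 0.399) were not called, and without DKO 1, Hcfc1 (0.36, adjusted p = 0.15), Epc1 (0.32, adjusted p = 0.123) and Mbd3 (-0.28, adjusted p = 0.112) were not. Epc1 (adjusted p = 0.0572 and 0.0528) and Mbd3 (adjusted p = 0.0547 and 0.0596) lost the call without P2KO 1 or P2KO 2, and Mbd3 without WT 1 (-0.15, adjusted p = 0.302). Ncor1 (0.22, adjusted p = 0.0303) and Epc1 (0.27, adjusted p = 0.043) stayed called with the length correction, and Trrap (0.11, adjusted p = 0.463), Hcfc1 (0.27, adjusted p = 0.0783) and Mbd3 (-0.185, adjusted p = 0.137) did not. Merged exons of the genes that were lower have 4698 nt (Jmjd6) and 1987 nt (Mbd3). Among those that were higher, Epc1 has 4475 nt and the others at least 7895 nt.

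Some markers of cell types were called as well. Of 7 Leydig cell markers, Cyp17a1 (0.31, adjusted p = 0.0193, edgeR), Cyp11a1 (0.28, adjusted p = 0.0324) and Star (0.51, adjusted p = 0.000159) were called higher in DKO against WT and Hsd3b1 lower (-0.46, adjusted p = 0.000273). Without DKO 1, Cyp17a1 (0.08, adjusted p = 0.805), Cyp11a1 (0.07, adjusted p = 0.811) and Hsd3b1 (-0.32, adjusted p = 0.086) were not called. With the length correction, 3 of the 7 were called higher and 1 lower in DKO against WT, and 1 was called higher in DKO against P2KO. The summed normalized counts of the Leydig list, led by Cyp17a1, were 17079 and 16721 in WT, 19423 and 17413 in P2KO, and 21829 and 17932 in DKO. DKO 1 was highest and DKO 2 was within the range of P2KO.

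Of 10 elongating spermatid markers, Prm1 (-0.22, adjusted p = 0.0302, edgeR) and Tnp1 (-0.25, adjusted p = 0.013) were called lower in DKO against WT, and Tnp2 (-0.29, adjusted p = 0.000762) in P2KO against WT. The calls were lost without DKO 1 (Prm1 -0.195, adjusted p = 0.269, Tnp1 -0.22, adjusted p = 0.228), without DKO 2 (Prm1 -0.24, adjusted p = 0.139, Tnp1 -0.295, adjusted p = 0.0636) or, for Prm1, without WT 2 (-0.16, adjusted p = 0.0992), and for Tnp2 without P2KO 1 (-0.27, adjusted p = 0.0784). Prm1 (-0.12, adjusted p = 0.331) and Tnp1 (-0.15, adjusted p = 0.2) were not called with the length correction either, and the median of the 10 in DKO against WT went from -0.09 to -0.01. Tnp2 stayed called in P2KO against WT with that correction (-0.27, adjusted p = 0.000326), and in DKO against P2KO it was then called higher (0.225, adjusted p = 0.00239), where it was not called uncorrected (0.15, adjusted p = 0.144). Their list, led by Prm2, summed to 516628 and 529113 in WT, 454165 and 492396 in P2KO, and 499162 and 485946 in DKO. Both WT libraries were above all 4 knockout libraries, and the median exon length of this list was 903.5 nt.

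Of 10 spermatocyte markers, Sycp2 was called higher in DKO against WT (0.23, adjusted p = 0.0123, edgeR, and without DKO 2 0.19, adjusted p = 0.296). Of the 10, 4 were above 0, with a median of -0.014. The list, led by Piwil1, summed to 39620 and 38816 in WT, 40303 and 39399 in P2KO, and 41439 and 40717 in DKO. The DKO libraries were highest. Of 10 round spermatid markers, Spaca1 was called lower in DKO against P2KO (-0.25, adjusted p = 0.0402, edgeR). It was not called without P2KO 1 (-0.15, adjusted p = 0.614), DKO 1 (-0.27, adjusted p = 0.215) or DKO 2 (-0.24, adjusted p = 0.399). With the length correction, 0 of the 10 were called in DKO against P2KO and 1 was called higher in DKO against WT. The list, led by Tssk2, summed to 45522 and 43543 in WT, 46304 and 44838 in P2KO, and 45893 and 45055 in DKO. These sums overlap between groups. No marker of Sertoli cells (10, led by Clu), peritubular myoid cells (4, led by Acta2), macrophages (6, led by C1qb), endothelial cells (5, led by Vwf), spermatogonia (8, led by Uchl1) or erythrocytes (3, led by Alas2) was called in any comparison by edgeR. Lists without a call could still lie to one side of 0. Of the 10 Sertoli cell markers, 10 were above 0 in P2KO against WT (median 0.105), 3 in DKO against WT (-0.04) and 0 in DKO against P2KO (-0.12). Their sums were 27425 and 25916 in WT, 26652 and 27884 in P2KO, and 27239 and 24171 in DKO, with DKO 2 lowest. Of the 6 macrophage markers, 0 were above 0 in P2KO against WT (median -0.24), 2 in DKO against WT (-0.02) and 6 in DKO against P2KO (0.24), and they summed to 748 and 968 in WT, 714 and 722 in P2KO, and 830 and 865 in DKO. The P2KO libraries were lowest for this list, and WT 1 was close to them.

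The 5 endothelial markers had medians of 0.15 in P2KO against WT, 0.43 in DKO against WT and 0.19 in DKO against P2KO, with 4, 4 and 3 above 0. They summed to 683 and 640 in WT, 700 and 689 in P2KO, and 662 and 751 in DKO, so that the sums of WT and DKO overlapped. The 4 myoid markers had medians of -0.15, 0.12 and 0.21 in the same order (1, 3 and 3 above 0), with sums of 1395 and 1489 in WT, 1252 and 1431 in P2KO, and 1658 and 1411 in DKO. The 8 spermatogonial markers had medians of 0.10, 0.01 and -0.09 (7, 4 and 2 above 0), with sums of 2610 and 2611 in WT, 2628 and 2687 in P2KO, and 2444 and 2451 in DKO. Both DKO libraries were lowest for the spermatogonial list. The 3 erythrocyte markers had medians of -0.64, -0.61 and 0.10 (0, 1 and 3 above 0), and summed to 789 and 1034 in WT, 527 and 897 in P2KO, and 775 and 768 in DKO. The part of cell composition in the values of the members was not tested.

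Sequences upstream of the start, from RefSeq (GRCm38.p6), were at hand for 56 of the 73 members. In the 250 bases before the start, the GC box GGGCGG stood on either strand in 36 members (64.3%) and in 32.9% of all 27025 promoters. The motif CCAAT stood in 35.7% and 34.5%, and TATAAA in 3.57% and 13% of them. The median GC content was 60.6% for members and 52% for all promoters. No share was taken over the promoters of tested genes alone. The promoters of Kmt2d (chr15:98871206-98871455, minus strand, GC content 67.6%) and Setd2 (chr9:110532347-110532596, plus strand, GC content 76%) are shown because these 2 members had the smallest adjusted p in DKO against WT. Capitals mark GGGCGG or its reverse complement, found 4 times in Kmt2d and, with overlaps, 7 times in Setd2. Neither window holds CCAAT or TATAAA on either strand.
Kmt2d: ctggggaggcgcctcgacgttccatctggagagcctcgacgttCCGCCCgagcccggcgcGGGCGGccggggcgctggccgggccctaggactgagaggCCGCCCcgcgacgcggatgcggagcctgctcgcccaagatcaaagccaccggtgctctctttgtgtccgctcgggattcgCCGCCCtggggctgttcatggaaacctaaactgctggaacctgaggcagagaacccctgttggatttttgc
Setd2: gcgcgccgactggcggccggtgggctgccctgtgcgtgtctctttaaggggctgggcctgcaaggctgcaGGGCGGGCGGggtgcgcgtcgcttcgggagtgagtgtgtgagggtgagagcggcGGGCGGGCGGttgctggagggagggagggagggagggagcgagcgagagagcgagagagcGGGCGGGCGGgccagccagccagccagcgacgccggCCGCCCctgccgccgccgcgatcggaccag
These matches are descriptions of letters and not sites of binding.

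Reads may be shared with other genes. Exons of 8 members overlap those of another annotated gene on the same strand, and exons of 26 on the other strand. The longest stretches of transcript shared with an overlapping gene, on either strand, were those of Setd1a with Gm49388, Kdm3b with Gm26538, Chd2 with 1810026B05Rik, Hdac4 with Gm26720, Kmt5b with Gm16066 and Kat14 with Pet117, and their counts are uncertain for this reason. Processed copies elsewhere in the genome match transcripts of Kat2b, Kdm2b, Kmt2d, Setd3 and Setd6 at 95% identity or more over at least 150 nt and 50% of the shorter transcript. The copy of Kmt2d, Gm47184 on chromosome 12, had 0 counts in all libraries. The pseudogene Kdm4dl, beside Kdm4d on chromosome 9 and not a member, had from 61 to 104 counts.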

How the data were processed

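The authors trimmed reads with Trim Galore (with cutadapt), aligned them to GRCm38 with STAR and its gene counting, and deposited raw counts per Ensembl gene, with no normalization. Versions and the strand counted are not given in the sources used here. The submitters' processing notes also name DESeq2. All identifiers were found in GENCODE release 21 for mouse, which gave symbols, positions and exon lengths.

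The fit used edgeR 4.0.16 under R 4.3.3 (filterByExpr with a minimum count of 10, TMM scaling, glmQLFit and glmQLFTest on all 6 libraries with a term for genotype, 3 residual degrees of freedom, Benjamini-Hochberg adjustment over the 20744 tested genes). The fit was tested on simulated data. The SE is the absolute log2 fold change over the square root of F. A normalized count is the count over the TMM-scaled library size, which was first divided by its geometric mean over libraries. Deviations used log2 of the normalized count plus 1. The length correction used offsets per library from a lowess curve (span 0.3) on log2 exon length. Copies were sought with BLAST 2.17.0.

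Named members are those called, the highest of each family per kb, the 5 longest and 5 shortest, the 3 highest and 3 lowest log2 fold changes in each comparison, those next to the count minimum, and up to 4 called genes per other list and comparison. Kdm3a, Hdac9, Srcap, Cecr2 and Epc1, members listed by overlap of libraries or by copies, and the marker genes were named after their values were seen. The members and lists were chosen with earlier results of these data known. Alternatives were RLE or upper-quartile scaling, no filter or a mean of at least 50 counts, DESeq2 1.42.0 or edgeR on fewer libraries, a replicate block, corrections for length or GC content, genes off chromosome 4, and each library left out, where the lone library of a genotype is assumed to vary like the others.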

Additional observations from a re-analysis of the deposited data

Results flagged for a closer look

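Genes tested directly between the knockout lines, DKO against P2KO, passed the threshold in 4 cases among the other lists, and 0 members did. Bptf was higher in DKO (log2 fold change 0.33, SE 0.0637, adjusted p = 0.00285, edgeR), as were Ep400 (0.25, SE 0.0634, adjusted p = 0.0346) and Phf2, a JmjC protein (0.25, SE 0.0637, adjusted p = 0.0399). Phf2 had normalized counts of 2725 and 2660 in WT, 2540 and 2337 in P2KO, and 2861 and 2936 in DKO, with P2KO lowest and no overlap between the 3 groups. The antisense gene Phf2os1 overlaps it. Spaca1 was lower in DKO than in P2KO (-0.25, adjusted p = 0.0402). With the length correction, Bptf (adjusted p = 0.00607) and Phf2 (adjusted p = 0.0318) stayed called, and Ep400 (adjusted p = 0.06) and Spaca1 (adjusted p = 0.059) did not. Leaving out 1 library took the call from Bptf (adjusted p = 0.134 without P2KO 1, 0.119 without DKO 2), Ep400 (adjusted p = 0.403, 0.0792, 0.181 and 0.387 without P2KO 1, P2KO 2, DKO 1 and DKO 2), Phf2 (adjusted p = 0.0728, 0.372, 0.2 and 0.387 in the same order) and Spaca1 (adjusted p = 0.614, 0.215 and 0.399 without P2KO 1, DKO 1 and DKO 2).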

How the results depend on the processing

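The 0 members called lower in each comparison stayed at 0 in all alternatives run. In DKO against WT the 4 calls became 2 with the length correction, with or without the replicate block, and 2 with DESeq2 on the 2 genotypes, and ran from 0 to 10 when a library was left out. The median of members went from 0.077 to 0.014 with the length correction, with or without the block, and the correlation with exon length from 0.511 to 0.075, or 0.083 with the block. In P2KO against WT the number of calls changed without WT 1, as did that over all tested genes. The median became -0.008 with the length correction and -0.005 with the block added. The correlation became -0.051 and -0.05, and ran from 0.079 to 0.476 without 1 library. In DKO against P2KO, 1 member was called without a filter, when 356 of 35523 genes were called. The number was also 1 with the length correction (295 of 20744), 1 with the block added (286) and 1 with the GC correction (291 of 20738). It was 2 each with DESeq2 and edgeR on the 2 genotypes, and changed without WT 1 or WT 2. The median there became 0.024 with the length correction and 0.023 with the block. Without 1 library the medians ran from 0.025 to 0.051 in P2KO against WT, from 0.055 to 0.106 in DKO against WT and from 0.042 to 0.082 in DKO against P2KO. Over all tested genes, the number called also changed with these alternatives. The causes were not tested beyond what each alternative itself removes.

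Replicate numbers did not pair the libraries: same-numbered deviations correlated at -0.0569, 0.0568 and -0.0516 in the 3 comparisons. With the replicate block alone 3 members were called higher in DKO against WT, Chd9 no longer among them, when 555 of 20744 tested genes were called. In the other comparisons 0 members were called. Medians were 0.076, 0.055 and 0.062 and correlations 0.528, 0.343 and 0.342 for DKO against WT, P2KO against WT and DKO against P2KO.

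Of the tests of single named genes under alternatives, 1006 kept direction and side of the threshold, 182 lost a call, 20 gained one and 11 changed sign. The 1006 include results that were not called in the main fit and so could not lose a call, and they do not measure how stable the calls are. Without 1 library, Chd9 in P2KO against WT ran from -0.027 (WT 1) to 0.323, and Setd7 in DKO against P2KO from -0.063 (P2KO 1; -0.005 without DKO 2) to 0.635. In DKO against WT, Hdac10 ran from -0.651 to 0.2 (WT 2), Brd3os from -0.295 (DKO 1) to 0.503, Kdm8 from -0.084 (DKO 2; -0.01 without WT 1) to 0.168 and Sirt4 from -0.209 to 0.109 (DKO 2). With the length correction the sign changed for Sirt4 (0.003) and Setd5 (-0.014, and -0.016 with the block). None of these was called. The counts of members whose libraries do not overlap were also taken with RLE and upper-quartile scaling, chosen after seeing the data, and moved by less than 1.5 times. Depth limits Hdac10 most, which had the fewest counts and the largest SE of the members (0.299 in DKO against WT).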
